A study of Mus musculus with 4 samples.

Results

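The STAT5 axis of mast cells was represented by 19 probe sets for 10 genes: the kinase gene Jak2, the transcription factor genes Stat5a and Stat5b, the feedback inhibitor genes Cish, Socs1, Socs2 and Socs3, and the survival kinase genes Pim1, Pim2 and Pim3. They were all of the 22690 probe sets of the array whose single gene symbol in the platform annotation is 1 of these names. Of the 19, 13 averaged 100 or more in intensity over the arrays and were tested, among 7770 probe sets in all; the remaining 6 are given as levels only. Each probe set is described separately, because probe sets of the same gene often read differently here, and levels are compared between arrays but never between probe sets. Values of a genotype are given in the order replicate 1, replicate 2.

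The RNA came from bone marrow-derived mast cells, grown from the marrow of mice aged 8 to 12 weeks for 4 to 6 weeks in medium with 5 ng/ml interleukin-3. The genotypes were wild-type (Pac1+/+) and Pac1-/-, the latter lacking the MAP kinase phosphatase PAC1 encoded by Dusp2. The targeting strategy and strain of the mice are not named in the labels. All 4 cultures were loaded with 100 ng/ml IgE against dinitrophenyl for 18 h, washed, and stimulated for 2 h with the antigen DNP-HSA at 20 ng/ml, so there is no resting culture and none without interleukin-3. Each genotype had 2 cultures, called independent in the series' design text and numbered replicates 1 and 2, with 1 Affymetrix mouse 430A array each. With so few arrays the precision of all values is limited.

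Interleukin-3, which keeps these cultures alive, binds a receptor made of its own alpha chain and a shared beta chain. The receptor activates the tyrosine kinase JAK2, which phosphorylates STAT5A and STAT5B; these then pair, enter the nucleus and bind DNA at sites with the core TTCNNNGAA. Their classical targets include Cish and the Socs genes, whose products dampen cytokine receptors and Janus kinases, and the Pim genes, whose serine/threonine kinases promote survival and growth. STAT5 is known to be needed for the development and survival of mast cells.

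Promoter sequence is shown for the members in which such sites were found, since Cish, Socs and Pim genes are grouped here as STAT5 targets. RefSeq promoters on GRCm38.p6 were matched for 9 of the 10 genes, with 12 annotated starts in all, and the 250 bases before each start were searched. TTCNNNGAA, which reads the same on both strands, occurred before 1 of the 12 starts (8.3%), that of Socs3, and in 7.02% of 32851 mouse promoters of the same length. The Socs3 match begins 154 bases before the start, inside the span of the RefSeq gene, whose longest model begins further upstream. In the Socs3 stretch the match is in capitals (chr11:117969502-117969530, minus strand).
Socs3: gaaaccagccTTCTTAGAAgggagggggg
The 250 bases before the Socs1 start are shown because Socs1 was 1 of the members past an unadjusted threshold of 0.05. Their capitals mark a pair of overlapping matches to GAAANNGAAA, the core of interferon-type response elements, a motif chosen after this sequence had been read (chr16:10785537-10785786, minus strand).
Socs1: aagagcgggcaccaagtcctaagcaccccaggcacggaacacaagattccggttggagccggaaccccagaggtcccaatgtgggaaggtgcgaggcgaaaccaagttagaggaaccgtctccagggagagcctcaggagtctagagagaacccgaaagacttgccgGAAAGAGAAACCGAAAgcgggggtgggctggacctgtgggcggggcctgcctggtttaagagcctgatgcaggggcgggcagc
The Socs1 matches begin 83 and 77 bases before the start. On either strand, GAAANNGAAA occurred in 2.98% of all promoters, at least 2 matches occurred in 0.18%, and Socs1 was the only member promoter with any. A match describes letters and does not show binding, and a window without a match says only that these letters are not in it.

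Most mast cell markers were bright on all 4 arrays: 11 of 13 measured, among them Kit, Fcer1a, Cpa3, Cma1 and Gata2, read at least 100 on every array, while the protease gene Mcpt4 read between 22.0 and 137. The receptor beta chain gene Ms4a2 was split by replicate number, at 143 and 3261 in wild-type and 41.9 and 1502 in Pac1-/- cells. The tryptase gene Tpsb2 read 476 on Pac1-/- replicate 2, against 5838 to 7259 on the other arrays. Of 33 measured markers of other blood cells, 24 read below 100 on every array; Adgre1, Cd68 and Itga2b, the exceptions above 100 throughout, include genes that mast cells or their progenitors can express. The macrophage list summed to 7929 and 6074 for the replicate 1 arrays but 615 and 587 for the replicate 2 arrays, wild-type first, with Cd68 carrying most of the difference. The erythroid and megakaryocyte list was lower on both Pac1-/- arrays, with sums of 2244 and 3389 in wild-type against 1938 and 662 in Pac1-/- cells. Most of it was Itga2b, at 2037 and 3170 against 1721 and 424. The Dusp2 probe set overlapped between the genotypes, at 167 and 90.7 on the wild-type and 109 and 75.5 on the Pac1-/- arrays, and where its probes lie relative to the deletion is not stated in the labels. Pac1-/- replicate 2 stood apart in its median deposited intensity (24.5, against 40.5 to 49.3) and in its GAPDH 3' to 5' ratio (191, against 0.80 to 1.36), while the beta-actin ratio was higher on the Pac1-/- array within either replicate number (293 against 109, and 54.8 against 1.58). The part of these differences in the results on the STAT5 axis was not tested.

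The question put to the arrays was whether activated mast cells without PAC1 differ in the transcripts of this pathway. The Socs1 probe set and 1 of the Socs2 probe sets were lower on both Pac1-/- arrays than on both wild-type arrays, by 3.01 and 1.41 on the log2 scale. They were among 4 tested members that were lower without overlap, where 13.4% of all tested probe sets were so. The classical STAT5 target Cish read 553 or more on every array and overlapped between the genotypes. After Benjamini-Hochberg adjustment no member passed the limma test (lowest adjusted p = 0.866), nor did any of the 7770 probe sets (0%). At an unadjusted threshold of 0.05, Socs1 and that Socs2 probe set were the only members past it, both lower. Of all tested probe sets, 1.13% were past it and lower and 2.25% past it and higher (263 probe sets, 3.38%, together). Socs1 reached the mean of 100 needed for testing only through its wild-type arrays (279 and 265, against 70.8 and 7.0 in Pac1-/- cells). With no intensity minimum Socs1 was not past the unadjusted threshold. Pim2, another of the 4 members lower without overlap, also reached that mean only through its wild-type arrays.

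**Figure D1:**
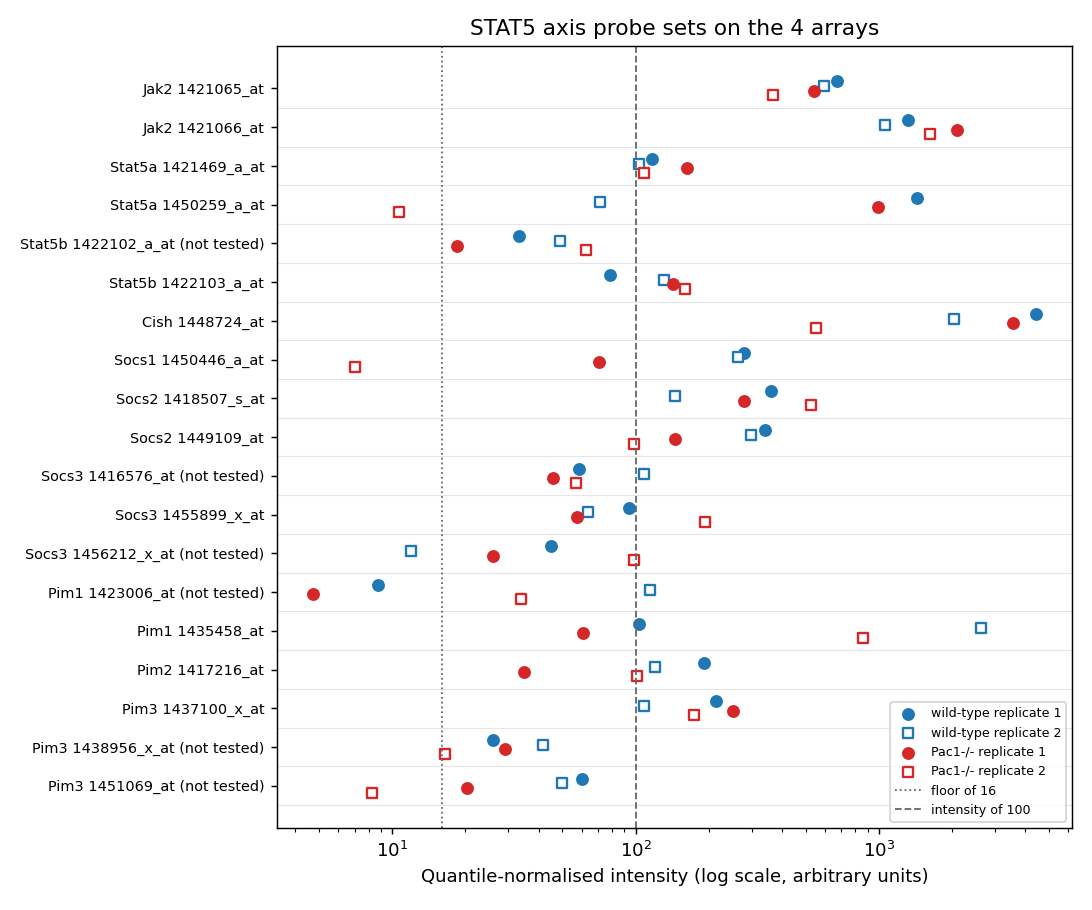
Quantile-normalised intensity (log scale) of the 19 STAT5 axis probe sets on the 4 arrays, wild-type in blue and Pac1-/- in red, replicate 1 filled and replicate 2 open; dotted and dashed lines mark the floor of 16 and an intensity of 100. Socs1 and the Socs2 probe set 1449109_at are among 6 probe sets with both red points left of both blue points, as in 14.7% of all non-control probe sets. Stat5a 1450259_a_at and Pim1 1435458_at are split by replicate number.

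Jak2, the kinase at the head of the pathway, had 2 probe sets that were bright on every array and differed between the genotypes in opposite directions. Probe set 1421065_at read 672 and 594 on the wild-type replicate 1 and 2 arrays and 540.2 and 365 on those lacking Pac1. Both Pac1-/- arrays were therefore below both wild-type arrays, with a log2 difference, Pac1-/- minus wild-type, of -0.51 ± 0.40 (SE, limma adjusted p = 0.866). The SE of every difference here is limma's, from 2 cultures per genotype and a variance drawn toward that of all tested probe sets. With arrays centred on their medians the difference was 0.17. On that scale all tested probe sets had a median of 0.66, and this probe set stayed below it. Probe set 1421066_at read 1316 and 1061 on the wild-type arrays against 2099 and 1628 without Pac1. Here both Pac1-/- arrays were above both wild-type arrays, with a log2 difference of 0.65 ± 0.38 (limma adjusted p = 0.866). The array thus gave no single direction for Jak2.

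Stat5a and Stat5b encode the near-identical STAT5 proteins and lie next to each other, with Stat3 beyond Stat5a, in the RefSeq annotation of GRCm38.p6. The authors' values do not show how far probes for such similar genes bind the other's transcript, and the readings of both genes are uncertain for that reason. Stat5a probe set 1421469_a_at read 117 and 104 on the wild-type arrays against 162 and 109 in Pac1-/- cells. These values overlapped, and the log2 difference of 0.27 ± 0.41 (SE) was -0.0046 on the values as deposited. The other Stat5a probe set, 1450259_a_at, read 1432 on wild-type and 991 on Pac1-/- replicate 1 but 71.5 on wild-type and 10.7 on Pac1-/- replicate 2. This probe set was high on both replicate 1 arrays and low on both replicate 2 arrays, so the genotypes overlapped and its genotype difference of -1.35 had a 95% confidence interval from -9.15 to 6.46. That interval takes in the spread between the replicate numbers. With replicate number added to the fit it was -2.65 to -0.044 (limma adjusted p = 0.429), though the labels give no pairing. Within replicate numbers the difference was -0.53 and -2.16, the second with 1 array at the floor of 16, and with a floor of 64 the fitted difference was -0.35.

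Stat5b probe set 1422103_a_at read 78.7 and 131 in wild-type cells and 143 and 160.1 in Pac1-/- cells. Both Pac1-/- arrays were higher after normalisation but not on the values as deposited (89.5 and 139.7 against 154.5 and 134.3), and the log2 difference was 0.57 ± 0.44 (SE; limma adjusted p = 0.866). The second Stat5b probe set, 1422102_a_at, was too dim to test, at 33.3 and 48.9 on the wild-type and 18.4 and 62.6 on the Pac1-/- arrays, with overlapping genotypes.

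Cish encodes CIS, an SH2 protein that is induced by STAT5 and competes for its docking sites on the receptor. It read 4438 and 2043 on the wild-type replicate 1 and 2 arrays against 3557 and 553 in Pac1-/- cells. The genotypes overlapped, since Pac1-/- replicate 1 lay above wild-type replicate 2, although Pac1-/- was the lower array within either replicate number. That within-number log2 difference was -0.32 for replicate 1 and -1.88 for replicate 2, and the fitted difference was -1.10 ± 1.12 (SE; limma adjusted p = 0.878). Without Pac1-/- replicate 2, the array that stood apart, the difference was 0.24. That fit sets Pac1-/- replicate 1 against both wild-type arrays, whereas against wild-type replicate 1 alone it was lower (-0.32).

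Socs1, whose product binds and inhibits Janus kinases, had 1 probe set. It read 279 and 265 in wild-type cells, and 70.8 and 7.0 in Pac1-/- cells. The wild-type arrays were close together and both Pac1-/- arrays were lower, the second of them below the floor of 16 to which all lower values were set. The log2 levels were 8.09 ± 0.06 in wild-type and 5.07 ± 1.52 in Pac1-/- cells (SD, n = 2), a difference of -3.01 ± 0.86 (SE) with a 95% confidence interval from -5.48 to -0.55 and a limma adjusted p of 0.866. The size depends on the floor: it was -2.01 with a floor of 64 and -1.94 without Pac1-/- replicate 2. Without wild-type replicate 1 or without wild-type replicate 2 it was -2.97 and -3.05, and Socs1 was then not past the unadjusted threshold, nor was it with no intensity minimum.

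Socs2, known as a brake on growth hormone receptor signalling and a STAT5 target, again had probe sets of opposite direction. Probe set 1449109_at read 341 and 297 in wild-type cells, and 146 and 98.3 in Pac1-/- cells. Both Pac1-/- arrays were lower, with a log2 difference of -1.41 ± 0.41 (SE; interval at 95% confidence -2.57 to -0.25; limma adjusted p = 0.866). Either replicate number gave a similar size (-1.23 and -1.59). The probe set was not past the unadjusted threshold on the values as deposited (-1.57), with median centring (-0.94), or without Pac1-/- replicate 2 (-1.13) or either wild-type array (-1.31 without the first and -1.51 without the second). Probe set 1418507_s_at, whose suffix marks probes shared by more than 1 transcript, read 361 and 145 in wild-type cells, and 279.6 and 527 in Pac1-/- cells. Its values overlapped, with a log2 difference of 0.75 ± 0.68 that was -0.37 in replicate 1 and 1.86 in replicate 2.

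Socs3, the feedback inhibitor of gp130-type receptors and the member whose promoter stretch with TTCTTAGAA is shown above, was dim on all 3 of its probe sets. Probe set 1455899_x_at, the only tested one, read 93.8 and 63.7 in wild-type cells and 57.3 and 192 in Pac1-/- cells. The highest and the lowest value both came from Pac1-/- cells, and the log2 difference was 0.44 ± 0.75 (SE; limma adjusted p = 0.929), or -0.43 without Pac1-/- replicate 2. Among the untested ones, 1416576_at read 58.7 and 108 in wild-type cells against 45.9 and 56.8 in Pac1-/- cells, without overlap, and 1456212_x_at read 44.9 and 11.9 against 26.0 and 98.1, with overlap. The 3 probe sets therefore gave no common direction. Whether the probes of the _x_at sets also read other transcripts is not shown by the deposited values.

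Pim1, a serine/threonine kinase gene induced by interleukin-3, followed the replicate number on both of its probe sets. Probe set 1435458_at read 103 on wild-type and 60.7 on Pac1-/- replicate 1, but 2626 on wild-type and 862 on Pac1-/- replicate 2. Both replicate 2 arrays were thus high, by 4.67 on the log2 scale in wild-type and 3.83 in Pac1-/- cells. The untested probe set 1423006_at had the same order, with 8.75 in wild-type and 4.72 in Pac1-/- replicate 1 and 114 and 33.9 in replicate 2. Pac1-/- was the lower array in either number on 1435458_at (-0.76 and -1.61), yet the fitted genotype difference of -1.18 ± 2.24 (SE) had a 95% confidence interval from -7.62 to 5.25. The difference was 0.73 without Pac1-/- replicate 1 and 1.15 without wild-type replicate 2. With replicate number added to the fit the interval was -2.34 to -0.032 (limma adjusted p = 0.430), though the labels give no pairing.

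Pim2, an X-linked gene for a related survival kinase, had 1 probe set, which read 191 and 120 in wild-type cells, and 34.8 and 101 in Pac1-/- cells. Its mean reached the 100 needed for testing only through the wild-type arrays. Both Pac1-/- arrays were lower, but the replicate 2 pair was close together, with log2 differences of -2.45 in replicate 1 and -0.25 in replicate 2. The fitted difference was -1.35 ± 0.70 (SE; limma adjusted p = 0.866), and -0.58 without Pac1-/- replicate 1. Sex-linked transcripts differed between the replicate numbers in both genotypes. With wild-type first, the Y-linked gene Eif2s3y read 219 and 275 in replicate 1 but 0.95 and 2.1 in replicate 2. Xist lay the other way, at 47.7 and 41.7 in replicate 1 but 2952 and 984 in replicate 2. The part of this in the Pim2 values, and in the other differences between the replicate numbers, was not tested.

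Pim3, the remaining kinase gene of the family, had 1 tested probe set, 1437100_x_at, which read 214 and 108 in wild-type cells, and 252 and 173 in Pac1-/- cells. The genotypes overlapped, with a log2 difference of 0.46 ± 0.53 (SE; limma adjusted p = 0.888). The dim probe set 1451069_at lay the other way without overlap, at 60.0 and 49.7 in wild-type and 20.3 and 8.25 in Pac1-/- cells, all below 100, and 1438956_x_at read between 16.5 and 41.8 with overlap. The Pim3 probe sets thus gave no common direction. As for Socs3, the values do not show whether the _x_at probes also read other transcripts.

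**Figure D2:**
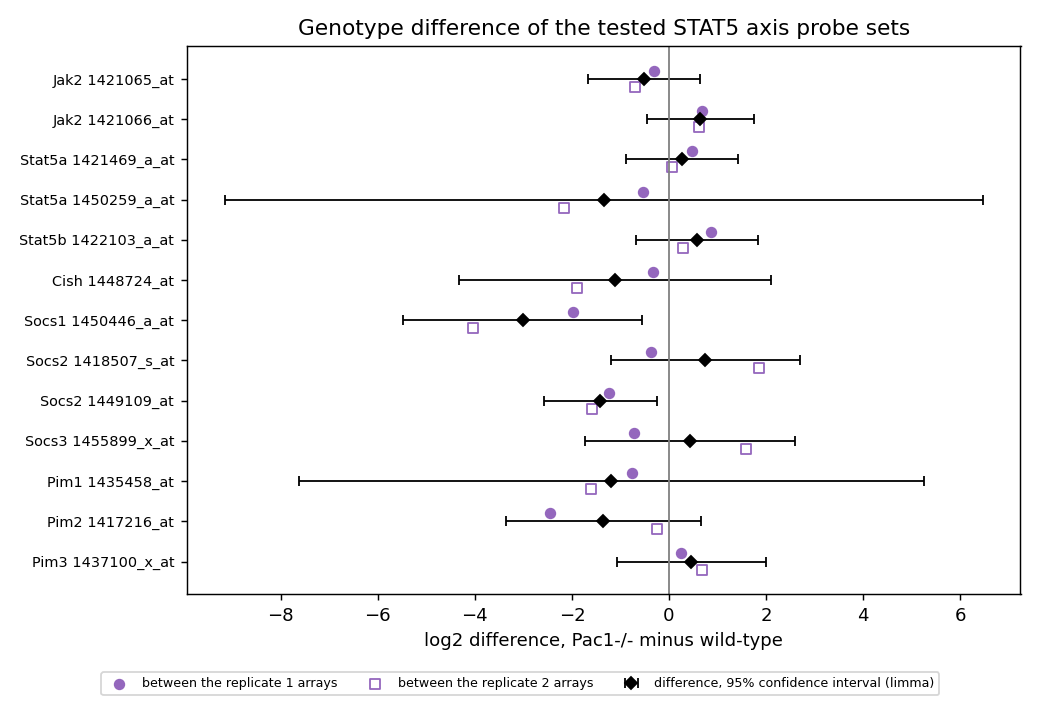
Log2 difference, Pac1-/- minus wild-type, of the 13 tested STAT5 axis probe sets (diamonds, with 95% confidence intervals from limma) and the same difference within replicate 1 (filled circles) and replicate 2 (open squares). The intervals of Socs1 (-5.48 to -0.55) and Socs2 1449109_at (-2.57 to -0.25) lie below 0, and those of Stat5a 1450259_a_at and Pim1 are the widest.

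Across the 13 tested member probe sets, 7 had a lower and 6 a higher fitted value in Pac1-/- cells. Their median log2 difference was -0.51, against 0.06 over all 7770 tested probe sets. With an array left out it lay between -0.033 and 0.24. With median centring the members' median was 0.17 and that of all tested probe sets 0.66. The genotypes did not overlap in 4 tested members that were lower (Jak2 1421065_at, Socs1, Socs2 1449109_at and Pim2), where 13.4% of all tested probe sets were so, and in 2 that were higher (Jak2 1421066_at and Stat5b 1422103_a_at), where 24.3% were so (37.7% in either direction). Of the 4 lower ones, Socs1 and Pim2 reached the mean of 100 needed for testing only through their wild-type arrays. Socs3 1455899_x_at, with overlap, reached it only through Pac1-/- replicate 2. Over all 19, tested or not, 6 were lower and 2 higher without overlap, where 14.7% and 21.9% of all 22626 non-control probe sets were so. Within either replicate number Pac1-/- was the lower array for 7 of the 13, where 27.3% of all tested probe sets were, and these were the 7 with a lower fitted value. The members had been chosen with earlier results of these arrays known, so these counts are descriptions.

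**Figure D3:**
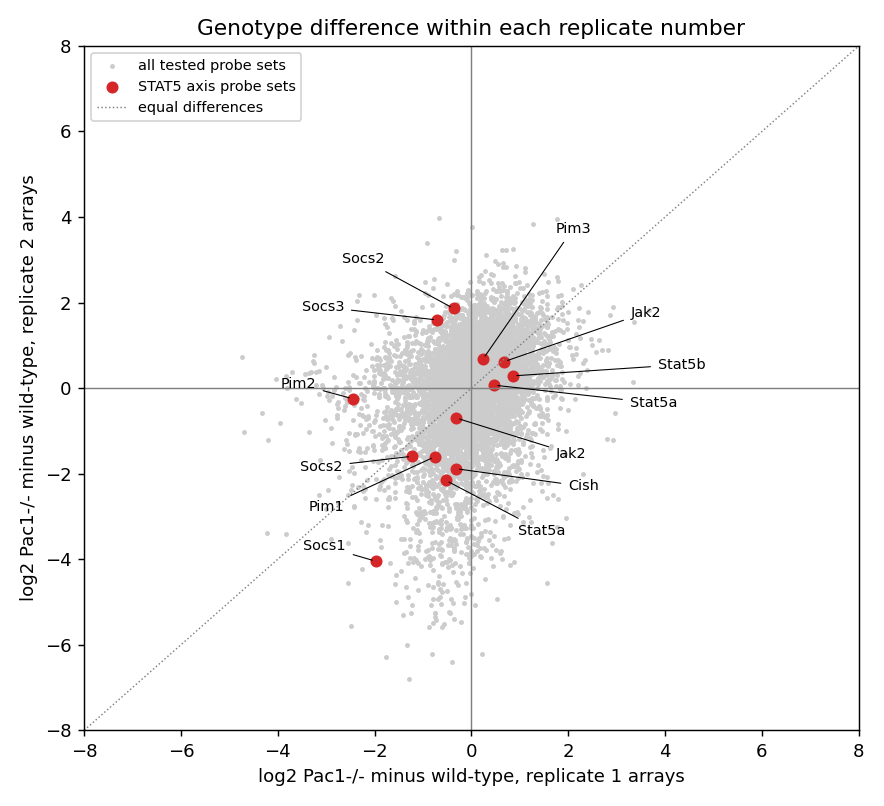
Log2 difference, Pac1-/- minus wild-type, within replicate 1 (x axis) and replicate 2 (y axis), for the 13 tested STAT5 axis probe sets (red, named) and all 7770 tested probe sets (grey); the dotted line marks equal differences. Socs1, Socs2 1449109_at, Pim1, Pim2, Cish, Stat5a 1450259_a_at and Jak2 1421065_at are the 7 members below 0 on both axes, and Socs1 (-1.98 and -4.05) is the farthest out.

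Probe sets of the same gene were set against each other in 3 members with 2 tested probe sets, Jak2, Stat5a and Socs2. In all 3 the genotype differences had opposite signs, as they had in 49.2% of the 1468 genes of the array when their 2 brightest tested probe sets were compared. The replicate number difference averaged over the genotypes had the same sign on both probe sets in each of the 3, and opposite signs in 45.2% of the 1468 genes. In Pac1-/- cells alone the Socs2 probe sets went opposite ways from replicate 1 to replicate 2, by 0.91 on 1418507_s_at and -0.57 on 1449109_at. Over all tested probe sets, log2 levels correlated at 0.885 and 0.750 between the arrays of replicate 1 and of replicate 2. Between arrays of the same genotype they correlated at 0.437 (wild-type) and 0.468 (Pac1-/-). Replicate number accounted for 66.4% of the sum of squares over the tested members, genotype for 25.1% and the remainder for 8.50%. Over all tested probe sets the shares were 71.9%, 17.9% and 10.2%. Large differences weigh most in such sums. Probe set by probe set, the replicate number difference was larger than the genotype difference in 6 of the 13 tested members (46.2%), and in 50.7% of all tested probe sets. A difference of at least 3 log2 units between the replicate numbers, in the same direction in both genotypes, was seen in 2 tested members, Stat5a 1450259_a_at (high in replicate 1) and Pim1 1435458_at (high in replicate 2), and in 7.49% of all tested probe sets.

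The rest of the pathway was described with 6 lists of 49 genes, of which 46 were on the array and 32 were bright enough to test, each gene by its brightest probe set. None passed limma's adjusted test. Bcl2, which encodes an inhibitor of apoptosis, was the only 1 of the 32 past the unadjusted threshold, where 3.38% of all tested probe sets were past it; 17 had a higher and 15 a lower fitted value in Pac1-/- cells, with a median of 0.03. Bcl2 read 745 and 464 in wild-type cells, and 259.8 and 111 in Pac1-/- cells. Both Pac1-/- arrays were lower, with a log2 difference of -1.79 ± 0.62 (SE; limma adjusted p = 0.866). Bcl2 was not past that threshold on the values as deposited, with median centring, with no intensity minimum, with a minimum of 200, or without Pac1-/- replicate 2 or either wild-type array.

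Among the receptors, the interleukin-3 specific alpha chain gene Il3ra was too dim to test, at 60.3 and 122 in wild-type and 27.7 and 26.7 in Pac1-/- cells. The shared beta chain genes Csf2rb and Csf2rb2 are close copies whose probes may read each other's transcript. Csf2rb2 read 4978 and 4297 in wild-type cells and 7032 and 5148 in Pac1-/- cells, a log2 difference of 0.38 ± 0.39 (SE). Csf2rb read 2464 and 2634 in wild-type cells and 3938 and 228 in Pac1-/- cells, so Pac1-/- replicate 2 alone was low and the genotypes overlapped (-1.43 ± 1.55). Of the other Janus kinases, Jak1 (0.23 ± 0.40) and Tyk2 (0.18 ± 0.42) were tested and overlapped, and Jak3 was too dim.

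Of the other STAT genes, Stat4 (0.64 ± 0.37, SE) and Stat6 (0.45 ± 0.37), the factor downstream of interleukin-4, were higher on both Pac1-/- arrays. So were 24.3% of all tested probe sets, and neither gene was past the unadjusted threshold. Stat3, the neighbour of Stat5a, read 1094 in wild-type and 884 in Pac1-/- replicate 1, and 160 and 32.7 in replicate 2, the same order of arrays as Stat5a 1450259_a_at. Its genotype difference was -1.30 ± 2.05. Among the other Socs genes only Socs5 was tested, with a log2 difference of -1.11 ± 0.78.

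Of 13 tested phosphatases, PIAS proteins and adaptors that act on JAK-STAT signalling, 8 had a higher and 5 a lower fitted value, with a median of 0.12. Lowest in p were the JAK phosphatase gene Ptpn2 (1.71 ± 0.73, SE), which read 239.9 and 765 in wild-type and 1145 and 1717 in Pac1-/- cells, Pias4 (-0.92 ± 0.48) and the JAK2-binding adaptor gene Sh2b3 (-1.82 ± 1.05), which read 247 and 257 against 183 and 27.9. The genotypes did not overlap in these 3, as in 37.7% of all tested probe sets, and none of the 3 passed the unadjusted threshold. Ptpn2 was past it with median centring and without wild-type replicate 2, and Sh2b3 without Pac1-/- replicate 1.

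Of 11 tested genes known as STAT5 targets in blood cells besides the members, 4 had a higher and 7 a lower fitted value, with a median of -0.48. After Bcl2, the lowest p belonged to the cyclin gene Ccnd3 (-1.01 ± 0.66, SE) and the survival gene Mcl1 (0.61 ± 0.45). Several of these genes differed between the replicate numbers by at least 2 log2 units in both genotypes, as did 11.5% of all tested probe sets. They are named after their values were seen. Bcl2l1, which encodes BCL-XL, read 1544 in wild-type and 516 in Pac1-/- replicate 1, but 86.1 and 9.17 in replicate 2, and Myc read 4569 and 3269, then 240.3 and 493. The interleukin-2 receptor gene Il2ra lay the other way, at 15.4 and 3.0 in replicate 1 and 250.5 and 419 in replicate 2, as did Tnfrsf13b (93.1 and 97.1, then 477 and 491). STAT5 targets therefore did not share 1 direction between the replicate numbers: Pim1, Il2ra and Tnfrsf13b were high on the replicate 2 arrays, and Cish, Bcl2l1 and Myc on the replicate 1 arrays of the same genotype.

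**Figure D4:**
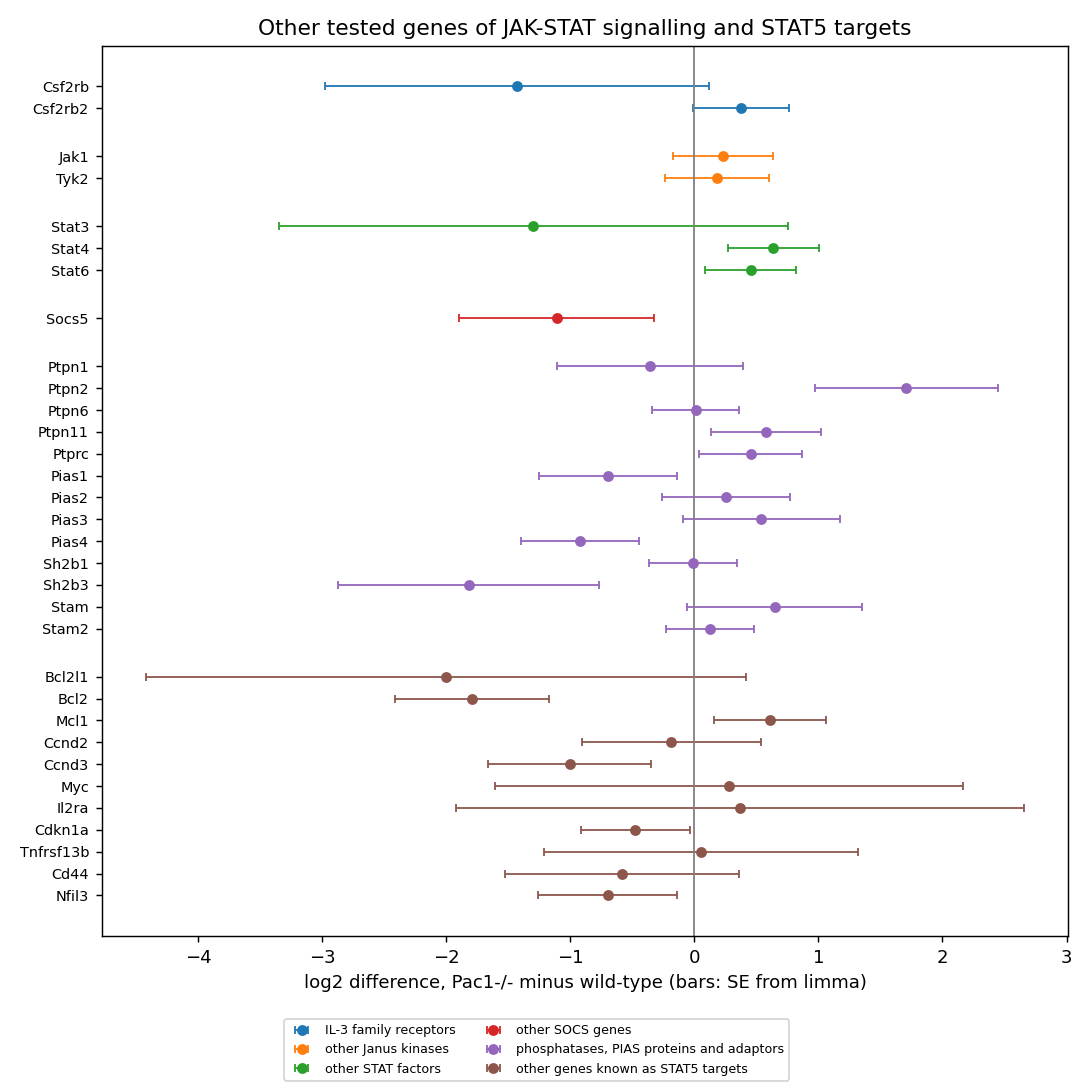
Log2 difference, Pac1-/- minus wild-type, of the 32 tested genes of the 6 pathway lists, each by its brightest probe set, with SE from limma as bars and colours for the lists. Points lie on both sides of 0 (17 higher, 15 lower), with Bcl2 (-1.79) the only gene past the unadjusted threshold and wide bars for genes that differ between the replicate numbers, such as Bcl2l1, Stat3 and Myc.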

How the data were processed

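The authors deposited 1 table of linear intensity per probe set and array, for which the submitters' processing notes name MAS5 and which was scaled to a common 2% trimmed mean (150.1 on each array). RNA (500 to 1000 ng) had been amplified by a method for small samples, per the labels' protocols. The series' design text describes RMA values, which were not used here. From the deposited intensities, 64 control probe sets were left out, quantile normalisation was applied to the linear values, anything under 16 was raised to 16, and the result was log2 transformed. Intensities in the text are the normalised ones unless called deposited. Probe sets with a mean of at least 100 were tested with limma 3.58.1 in R 4.3.3 (lmFit and eBayes with a genotype term alone; two-sided; threshold 0.05 after Benjamini-Hochberg adjustment; 2 residual and 1.71 prior degrees of freedom). No exact permutation test is given, since 2 against 2 arrays cannot go below p = 0.333. The fit was also run on simulated independent values without a replicate number effect, a floor or normalisation, so that run does not cover these features. SEs of differences, intervals and p-values rest on the spread between 2 cultures per genotype, most of which follows the replicate number. In them limma draws the variance of each probe set toward a value shared by all tested probe sets.

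Named are all member probe sets and, per pathway list, up to 3 tested genes with the lowest p. The members, lists and motifs were chosen with earlier results of these data known. The alternatives were the deposited values, median centring, no intensity minimum, a minimum of 200, a floor of 64, an intensity trend, the replicate block, and leaving out each array. Figures were drawn with matplotlib 3.10.9.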

Additional observations from a re-analysis of the deposited data

How the results depend on the processing

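Under every alternative 0 probe sets passed the adjusted test. The unadjusted counts as reported were 263 probe sets, 2 members and 1 pathway gene. On the deposited values they were 203 of 7765 probe sets, 1 member and 0 pathway genes. With median centring they were 315 of 7765, 1 and 1. With no intensity minimum they were 1762 of 22626, 2 (Socs2 1449109_at and Pim3 1451069_at) and 3. With a minimum of 200 they were 110 of 4969, 1 and 0. With the replicate block they were 899 of 7770 probe sets (571 of them lower), 4 members (Socs1, Socs2, Stat5a and Pim1) and 4 pathway genes (Bcl2, Bcl2l1, Ptpn2 and Sh2b3). The intervals were then -2.65 to -0.044 for Stat5a 1450259_a_at (adjusted p from limma 0.429) and -2.34 to -0.032 for Pim1 1435458_at (0.430). The labels give the genotypes the same replicate numbers but no pairing (deviations of same-numbered arrays correlated at r = 0.751 over probe sets). Leaving out an array gave 79 to 408 probe sets, 0 to 2 members and 0 to 4 pathway genes. The higher share of unadjusted calls was 66.5%, but 54.2% on deposited values, 91.4% with median centring and 36.5% with the block.

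The members' median (-0.51) was 0.17 with median centring and between -0.033 and 0.24 with an array left out. The sign turned for Stat5a 1421469_a_at on deposited values (-0.0046) and for Jak2 1421065_at with median centring (0.17). With an array left out the ranges crossed 0 for Stat5a 1421469_a_at (-0.020 to 0.56) and 1450259_a_at (-4.32 to 1.63), Cish (-2.44 to 0.24), Socs3 (-0.43 to 1.31), Pim1 (-3.52 to 1.15) and Pim3 (-0.033 to 0.95). The cause was not tested. In those fits part of the replicate number difference enters the genotype difference, and the lone array is taken to have the other genotype's spread. Socs1 ranged from -4.09 to -1.94 and Socs2 1449109_at from -1.69 to -1.13. Readings below 100 limit Socs1 and Stat5a 1450259_a_at (2 arrays each, 1 of them at the floor; -2.01 and -0.35 with a floor of 64), Socs3, Pim3 1451069_at and Stat5b.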
